A study of Mus musculus with 6 samples.

Results

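Rab proteins are small GTPases that give each membrane compartment of the cell its identity and direct vesicles between the endoplasmic reticulum, Golgi, endosomes, lysosomes and plasma membrane. Each cycles between a GDP-bound form, kept soluble by GDP dissociation inhibitor, and a GTP-bound membrane form that recruits effectors. Exchange factors switch Rab proteins on and GTPase-activating proteins switch them off. In muscle fibres the family is best known for moving vesicles that carry the insulin-regulated glucose transporter GLUT4.

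The Rab family was taken as every non-control probe set annotated to exactly 1 gene whose symbol is Rab followed by a number and at most a letter and a further digit, with a mean signal over the 6 arrays above 37.8. That cutoff is the 40th percentile of all probe sets on the array. The rule kept 99 probe sets for 46 genes, of 26995 probe sets for 12529 genes tested in the whole series. Before the cutoff the array held 132 Rab probe sets for 59 genes. The 13 genes with no probe set above it were Rab3b, Rab3c, Rab9b, Rab17, Rab19, Rab20, Rab25, Rab26, Rab33a, Rab37, Rab39, Rab39b and Rab42. The members nearest the cutoff were a Rab23 probe set at a mean signal of 38.6 and a Rab43 probe set at 39.4, and just outside it lay a Rab12 probe set at 35.7 and a Rab7b probe set at 35.2. Of the 99 member probe sets, 10 had a mean below the cutoff in 1 genotype and reached it only through the other, where they were higher. They include 1 of 2 Rab40b probe sets, dim Rab6b ones and the only Rab44 one. Counts below include these members, but their calls and p-values are no support for a difference.

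Quadriceps, a thigh muscle, was profiled on Affymetrix arrays in 3 ERRγ-transgenic and 3 wild-type mice, all male, of strain C57/BL6 and 8 weeks of age. The transgenic animals overexpress ERRγ, a nuclear receptor with no known natural ligand and the product of Esrrg, from a skeletal actin promoter that is active in muscle fibres; the labels do not say from how many founder lines they came. The comparison asks how muscle transcripts differ when this receptor is in excess. Signals are MAS5 intensity on a linear scale, and the number of arrays limits their precision. Differences are transgenic minus wild-type in log2(signal + 16), which understates changes at dim probe sets, and a gene passed at a limma adjusted p under 0.05.

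The brightest Esrrg probe set read 14427, 13808 and 12697 in transgenic muscle, against 71.6, 61.0 and 24.1 in wild-type muscle. The labels and the transgene therefore match on all 6 arrays, although the other Esrrg probe sets, which read between 36.9 and 174.3, were not called. Fibre genes such as Acta1, Ckm and Tnnt3 were bright on every array, and the summed signal of 8 fibre markers spanned 149527 to 171107 in transgenic and 135292 to 172685 in wild-type muscle. Within that list the fast myosin gene Myh1 was higher in transgenic muscle by 0.67 (SE 0.09, limma adjusted p = 0.00129). Actn3 lay below wild-type on all transgenic arrays without passing. Endothelial markers lay higher in transgenic muscle, where the sum of 8 spanned 3752 to 4179, against 2128 to 2348 in wild-type muscle, and 6 of the 8 passed. Sums of 4 Schwann cell and nerve markers spanned 709.8 to 878.1 in transgenic and 584.2 to 630.9 in wild-type muscle, with 1 of the 4, Syp, higher. The blood marker Alas2 read 70.6 to 103.5 in transgenic and 30.2 to 63.3 in wild-type muscle and did not pass. Smooth muscle markers, 4 of them tested, had sums of 7450 to 8584 in transgenic and 6146 to 8292 in wild-type muscle, which overlapped. Their median difference was 0.34 and 0 passed (2 at an unadjusted limma p under 0.05). A further one, Cnn1, lay below the signal cutoff and read 40.6 to 47.9 in transgenic and 4.9 to 12.5 in wild-type muscle. The part of these markers in the Rab results was not tested. Sums of 6 fibroblast markers spanned 28625 to 29019 in transgenic and 29490 to 35275 in wild-type muscle, and those of 3 satellite cell markers 218.4 to 254.4 in transgenic and 298.0 to 365.6 in wild-type muscle, with 0 passing in either list (at an unadjusted limma p under 0.05, 3 of the fibroblast and 2 of the satellite cell markers). None of these markers read 0 on any array. Adipocyte markers stood highest on wild-type array 3. Adipoq read 2293, 4186 and 1446 in transgenic muscle, against 3217, 2367 and 8412 in wild-type muscle.

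Of the 46 Rab genes, 6 fell in transgenic muscle and 0 rose. The genes that fell were Rab40b, Rab6a, Rab2a, Rab12, Rab7 and Rab10, each represented by its brightest probe set. Among all genes tested, 13.4% passed, 5.75% lower and 7.65% higher in transgenic muscle. The Rab family as a whole was therefore called about as often as other genes, and its calls were all in the lower direction. At an unadjusted limma p under 0.05, 9 Rab genes were lower and 5 higher, 30.4% of the family, against 27.9% of all genes. By probe set, 13 of 99 were lower and 0 higher, where 5.16% of all probe sets tested were lower and 6.38% higher. At an unadjusted p under 0.05, 17 Rab probe sets were lower and 7 higher, 24.2% of them, against 25.6% of all probe sets. The 13 include the Rab40b probe set that reached the cutoff only through wild-type muscle. The 5 higher genes at an unadjusted p include Rab44, and the 7 higher probe sets include that of Rab44 and a dim Rab6b one. Both of these probe sets reached the cutoff only through transgenic muscle.

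The median difference over the 46 Rab genes was 0.03 on the log2 scale, the same to 2 decimals as over all genes. With all arrays brought to the same median signal, both medians moved below 0, to -0.12 for Rab genes and -0.11 for all genes. Under that scaling 28.9% of all probe set calls were higher in transgenic muscle, against 55.2% as deposited, and 0 Rab genes were higher and 7 lower. The directions below hold for all 6 genes under the deposited, median and quantile scalings.

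**Figure D1:**
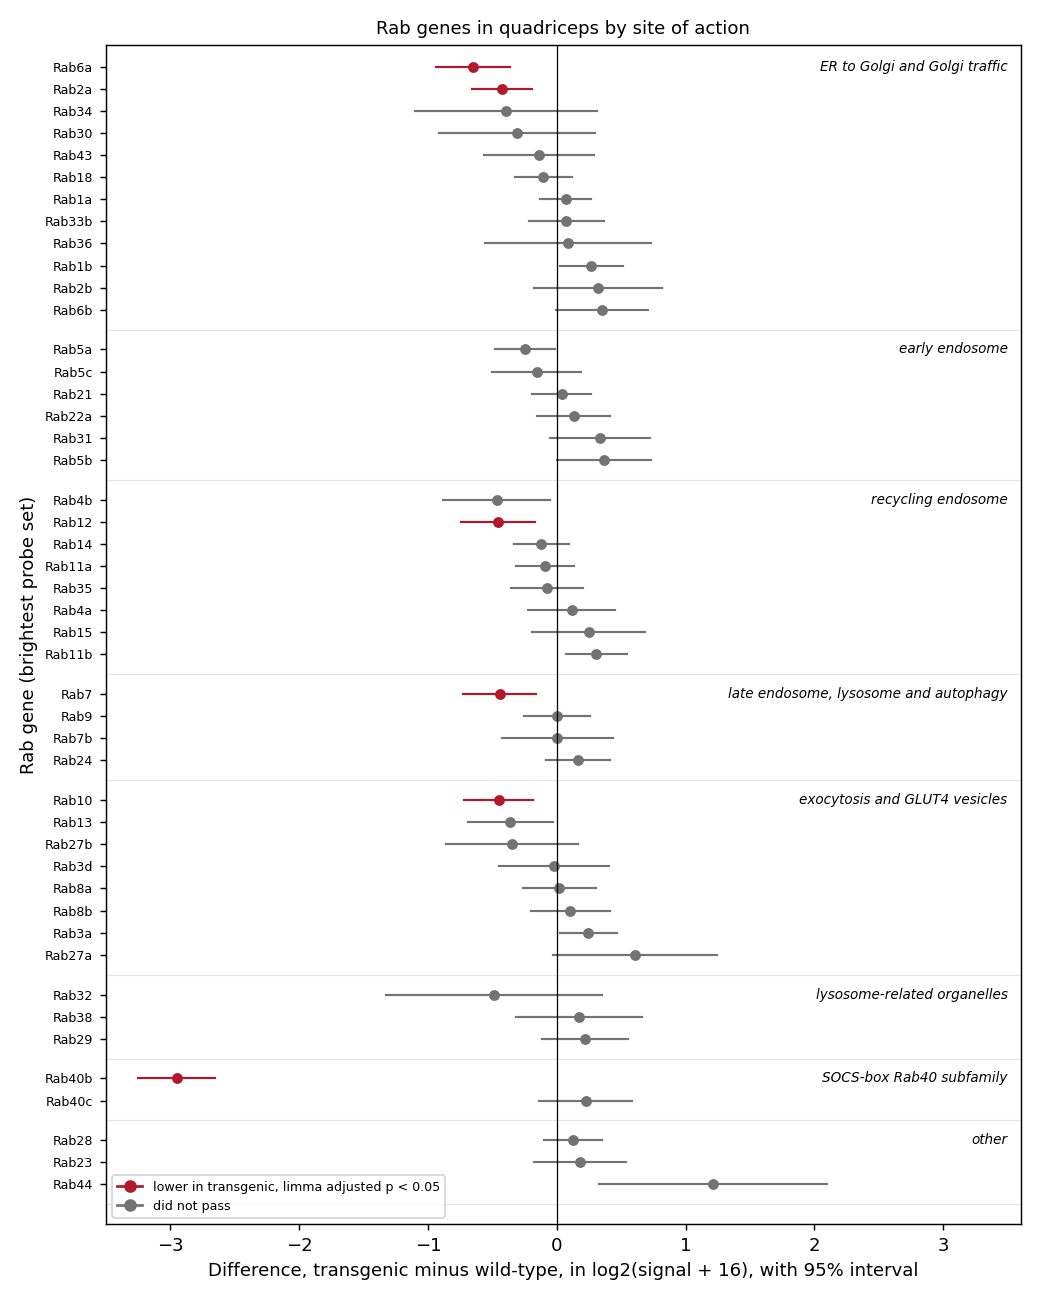
Difference between transgenic and wild-type muscle for each of the 46 Rab genes, in log2(signal + 16), grouped by the compartment where the protein is best known to act. Points are limma estimates at the gene's brightest probe set, bars are 95% intervals, and red marks the 6 genes that passed. Rab40b stands alone near -2.95, while the other 5 red points lie between -0.65 and -0.42.

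Promoters are shown for Rab40b, which fell most, and for Rab6a and Rab10, where each of 3 probe sets fell. They are the 250 bases before the annotated transcription start, from RefSeq on GRCm38.p6, read 5′ to 3′ on the gene's strand. Capitals mark CCAAT or its reverse complement ATTGG, a common promoter element, which was chosen for display after the sequences were seen.
Rab40b, minus strand, chr11:121388252-121388501: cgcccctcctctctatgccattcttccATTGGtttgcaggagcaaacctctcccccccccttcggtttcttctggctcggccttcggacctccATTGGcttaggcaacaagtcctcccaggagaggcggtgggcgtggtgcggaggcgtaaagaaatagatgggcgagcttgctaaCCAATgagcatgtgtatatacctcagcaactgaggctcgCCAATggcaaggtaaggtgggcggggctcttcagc
Rab6a, plus strand, chr7:100607336-100607585: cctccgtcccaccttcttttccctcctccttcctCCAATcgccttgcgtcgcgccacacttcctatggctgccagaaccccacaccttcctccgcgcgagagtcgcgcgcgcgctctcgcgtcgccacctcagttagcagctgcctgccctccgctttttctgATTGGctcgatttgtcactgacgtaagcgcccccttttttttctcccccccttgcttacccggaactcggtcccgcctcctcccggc
Rab10, minus strand, chr12:3309970-3310219: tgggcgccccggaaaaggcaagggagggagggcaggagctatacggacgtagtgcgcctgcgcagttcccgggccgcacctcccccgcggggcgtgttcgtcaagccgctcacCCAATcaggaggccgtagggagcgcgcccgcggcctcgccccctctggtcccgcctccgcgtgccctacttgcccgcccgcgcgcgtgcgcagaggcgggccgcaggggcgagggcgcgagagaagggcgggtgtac

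The element occurs 4 times upstream of Rab40b, 2 times upstream of Rab6a and 1 time upstream of Rab10. It is not particular to genes that fell: Rab5b, which did not pass, also has 4, Rab4b has 3 and Rab40c has 2, while Rab12 has 0. Over windows of 250 bases before to 50 after the start, 3.33% of the 60 Rab windows and 1.06% of all 32851 windows hold it at least 4 times on either strand. At least 1 time it is in 43.3% of Rab windows and 37.4% of all windows. The dinucleotide CG occurs 19 times in the window of Rab40b, 29 in that of Rab6a and 43 in that of Rab10. Over all windows the median is 7 and the upper quartile 20, so that Rab40b lies below that quartile. The ERR response element TCAAGGTCA and its looser form TNAAGGTCA, which contains the first, were searched on both strands. The 60 windows cover 48 Rab genes, of which 37 are among the 46 described and 11 lie below the signal cutoff. The other 9 of the 46, Rab2a, Rab4a, Rab7b, Rab18, Rab27b, Rab30, Rab36, Rab38 and Rab44, were not searched. Neither form was in any of the 60 windows, while 0.423% and 1.28% of all windows hold them. The shorter half-site AGGTCA, part of both and added later, was in 5 of the 60 Rab windows and in 16.3% of all windows. It was in 0 of the windows of Rab40b, Rab6a, Rab10, Rab12 and Rab7, and Rab2a, which also fell, was not searched. No match says only that these letters are not in these windows.

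Rab40b belongs to a subfamily whose members carry a SOCS box, the stretch through which they join elongins B and C and cullin 5 in a ubiquitin ligase. Its brighter probe set (1436566_at) read 106.4, 110.6 and 86.9 in transgenic muscle, against 947.3, 841.8 and 875.0 in wild-type muscle. All 3 transgenic arrays lay far below every wild-type array. The wild-type mean was 8.77 times the transgenic mean, a difference of -2.95 (SE 0.13, limma adjusted p = 1.99e-06). The dimmer probe set (1425756_at) read 4.2, 6.0 and 7.2 in transgenic muscle, under the added 16 units, against 162.7, 147.3 and 107.2 in wild-type muscle. It reached the signal cutoff only through wild-type muscle and is no second support for the fall. In whole muscle, fewer cells of a type and less RNA per cell cannot be told apart.

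The closest relative on the array, Rab40c, did not pass. It read 200.9, 200.9 and 183.9 in transgenic muscle, against 140.1, 156.0 and 204.0 in wild-type muscle, so that the genotypes overlapped. Its difference was 0.22, with a 95% interval of -0.14 to 0.58. On the log2 scale, the array-by-array contrast of Rab40b with Rab40c ran from -0.96 to -0.78 in transgenic and from 2.02 to 2.63 in wild-type muscle. The genotypes differed in it by -3.17 (exact two-sided permutation p = 0.1, the smallest that 3 arrays against 3 allow, adjusted p = 0.186 over the 13 pairs of Rab genes that share a number). In 7 of the 13 pairs the genotypes did not overlap in this contrast. No share over other pairs of genes was computed, so this count is not a result about Rab pairs. For single genes, 33.3% of all tested did not overlap. Among the 7 are pairs in which neither gene passed, such as Rab1a with Rab1b.

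Among Rab proteins of the endoplasmic reticulum and Golgi, Rab6a and Rab2a fell and 10 of 12 genes did not pass. Rab6a directs traffic from endosomes to the Golgi and within it. It read 1041, 1023 and 1350 at its brightest probe set (1448305_at) in transgenic muscle, against 1801, 1941 and 1621 in wild-type muscle. The highest transgenic array stayed below the lowest wild-type array, with a difference of -0.65 (SE 0.13, limma adjusted p = 0.00891). Its other probe sets fell too, by 0.50 (SE 0.12, limma adjusted p = 0.0259) and 0.86 (SE 0.20, limma adjusted p = 0.0177). Its neuronal-type relative Rab6b read 145.7, 152.3 and 142.9 in transgenic muscle, against 114.3, 96.1 and 126.0 in wild-type muscle. The genotypes did not overlap, but the difference of 0.35 (SE 0.16) did not pass (limma adjusted p = 0.199), and the 3 dimmer Rab6b probe sets gave differences of both signs. The contrast of Rab6a with Rab6b differed between genotypes by -1.01, without overlap (exact two-sided permutation p = 0.1, adjusted p = 0.186 over the 13 pairs).

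Rab2a acts between the endoplasmic reticulum and the Golgi. At its brightest probe set (1418622_at) it read 3235, 2808 and 2979 in transgenic muscle, against 4381, 4143 and 3620 in wild-type muscle, a difference of -0.42 (SE 0.10, limma adjusted p = 0.0256). A second bright probe set fell by 0.42 (SE 0.10, limma adjusted p = 0.0216). The third bright one read 2493, 3034 and 2242 in transgenic and 3419, 3255 and 2750 in wild-type muscle, which overlapped, and did not pass (limma adjusted p = 0.203). The 4 dim Rab2a probe sets, with mean signals of 39.4 to 100.1, did not pass either, and the average of all 7 differed by -0.18 (limma adjusted p = 0.370). The contrast of Rab2a with Rab2b overlapped between the genotypes.

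The other Golgi members were Rab1a, Rab1b, Rab2b, Rab18, Rab30, Rab33b, Rab34, Rab36 and Rab43, with differences between -0.40 and 0.32. Rab1a and Rab1b drive export from the endoplasmic reticulum. Rab1a read 4040, 4304 and 3873 in transgenic and 3794, 3791 and 4055 in wild-type muscle, a difference of 0.07 with a 95% interval of -0.13 to 0.27. Rab34, a Golgi and ciliary Rab, had the largest negative difference of these 9 (-0.40, SE 0.32). It read 119.6, 177.1 and 139.5 in transgenic muscle, against 132.3, 145.1 and 373.3 in wild-type muscle, so that 1 wild-type array stood apart. That array, wild-type 3, was also the one with the highest adipocyte markers, whose part in this was not tested.

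Among endosomal Rab proteins, Rab12 fell and the early endosome members did not pass. Rab12, which steers the transferrin receptor from recycling endosomes to lysosomes, has 1 member probe set (1427992_a_at). It read 1997, 2050 and 1623 in transgenic muscle, against 2724, 2865 and 2216 in wild-type muscle. The genotypes did not overlap, with a difference of -0.46 (SE 0.13, limma adjusted p = 0.0457). Of the 7 other recycling members, Rab4a, Rab4b, Rab11a, Rab11b, Rab14, Rab15 and Rab35, none passed (at an unadjusted p under 0.05, Rab4b and Rab11b). Rab4b read 150.1, 111.8 and 89.4 in transgenic muscle, against 174.4, 162.8 and 157.4 in wild-type muscle, a difference of -0.47 (SE 0.19, limma adjusted p = 0.146). Among the 18 alternatives run it passed only with all arrays brought to the same median signal. Rab11b, of the recycling compartment, went the other way. Its brightest probe set read 1626, 1351 and 1451 in transgenic muscle, against 1146, 1169 and 1247 in wild-type muscle, a difference of 0.31 (SE 0.11, limma adjusted p = 0.0928), and it passed only with array weights.

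The 6 early endosome genes, Rab5a, Rab5b, Rab5c, Rab21, Rab22a and Rab31, had differences between -0.25 and 0.37 and 0 passed (limma; 2 at an unadjusted p under 0.05). Rab5 isoforms control fusion of incoming endocytic vesicles, and they differed in sign here at their brightest probe sets. The dimmer Rab5b probe set gave -0.01 (SE 0.23) and did not pass. Rab5a read 1314, 1542 and 1446 in transgenic muscle, against 1579, 1747 and 1781 in wild-type muscle, while Rab5b read 309.4, 407.6 and 298.5 in transgenic and 258.9, 299.5 and 215.9 in wild-type muscle. Their differences, -0.25 (SE 0.10) and 0.37 (SE 0.17), did not pass (limma adjusted p = 0.170 and 0.191). The contrast of Rab5a with Rab5b differed between genotypes by -0.62, without overlap (exact two-sided permutation p = 0.1, adjusted p = 0.186 over the 13 pairs). Rab31 gave 0.34 (SE 0.18, limma adjusted p = 0.261).

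Rab7, the switch that lets late endosomes and autophagosomes fuse with lysosomes, fell. At its brighter probe set (1415734_at) it read 2347, 2588 and 1862 in transgenic muscle, against 3124, 3231 and 2835 in wild-type muscle, a difference of -0.44 (SE 0.13, limma adjusted p = 0.0472). At the other it read 1112, 1027 and 1109 in transgenic muscle, against 1484, 1504 and 1378 in wild-type muscle, a difference of -0.42 (SE 0.10, limma adjusted p = 0.0202). Neither probe set overlapped between the genotypes. The remaining members of this group, Rab7b, Rab9 and Rab24, did not pass, with differences of 0.00, 0.00 and 0.17. Rab9, which returns mannose 6-phosphate receptors from late endosomes to the Golgi, read 643.7, 646.5 and 630.4 in transgenic muscle, against 605.5, 599.3 and 721.8 in wild-type muscle. Its 95% interval was -0.25 to 0.26. The contrast of Rab7 with Rab7b overlapped between the genotypes.

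Of the Rab proteins of exocytosis and GLUT4 traffic, Rab10 fell. Rab10 is needed for insulin to bring GLUT4 to the surface of adipocytes, and Rab8a and Rab13 serve this in cultured muscle cells. Rab10 read 5588, 6602 and 5798 at its brightest probe set (1453095_at) in transgenic muscle, against 9430, 8358 and 6944 in wild-type muscle. The difference was -0.45 (SE 0.12, limma adjusted p = 0.0378). The 2 dimmer probe sets showed larger falls, of 0.70 (SE 0.12, limma adjusted p = 0.00328) and 0.68 (SE 0.13, limma adjusted p = 0.00658), and the genotypes did not overlap at any of the 3. On each probe set wild-type array 3 was the lowest of the wild-type arrays.

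Rab8a read 386.4, 363.6 and 358.4 in transgenic muscle, against 335.4, 346.1 and 416.2 in wild-type muscle, a difference of 0.02 with a 95% interval of -0.27 to 0.30. Rab13 read 171.2, 182.2 and 141.4 in transgenic muscle, against 200.8, 218.2 and 227.3 in wild-type muscle. The genotypes did not overlap, but the difference of -0.36 (SE 0.15) did not pass (limma adjusted p = 0.156). Rab3a, Rab3d, Rab8b, Rab27a and Rab27b, the rest of this group, did not pass. Rab27a, of secretory granules, gave 0.61 (SE 0.29, limma adjusted p = 0.215) at signals of 61.9 to 96.7 in transgenic and 28.2 to 66.3 in wild-type muscle.

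Rab29, Rab32 and Rab38, of lysosome-related organelles, did not pass. Rab32 gave -0.49 (SE 0.38), with 44.1, 70.0 and 14.0 in transgenic and 61.1, 47.1 and 71.9 in wild-type muscle, and Rab29 gave 0.22 (SE 0.15). Rab23, Rab28 and Rab44 were grouped apart. Rab44, a large Rab with calcium-binding motifs that is known from immune cells, reached the signal cutoff only through transgenic muscle. It read 75.5, 64.6 and 56.5 in transgenic muscle, against 41.2, 3.9 and 21.6 in wild-type muscle, which did not overlap, and it was not called. Sums of 8 leukocyte markers spanned 1463 to 1871 in transgenic and 1735 to 2057 in wild-type muscle, none of these markers read 0, and their part was not tested. Rab23, a ciliary Rab, gave 0.18 (SE 0.16).

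**Figure D2:**
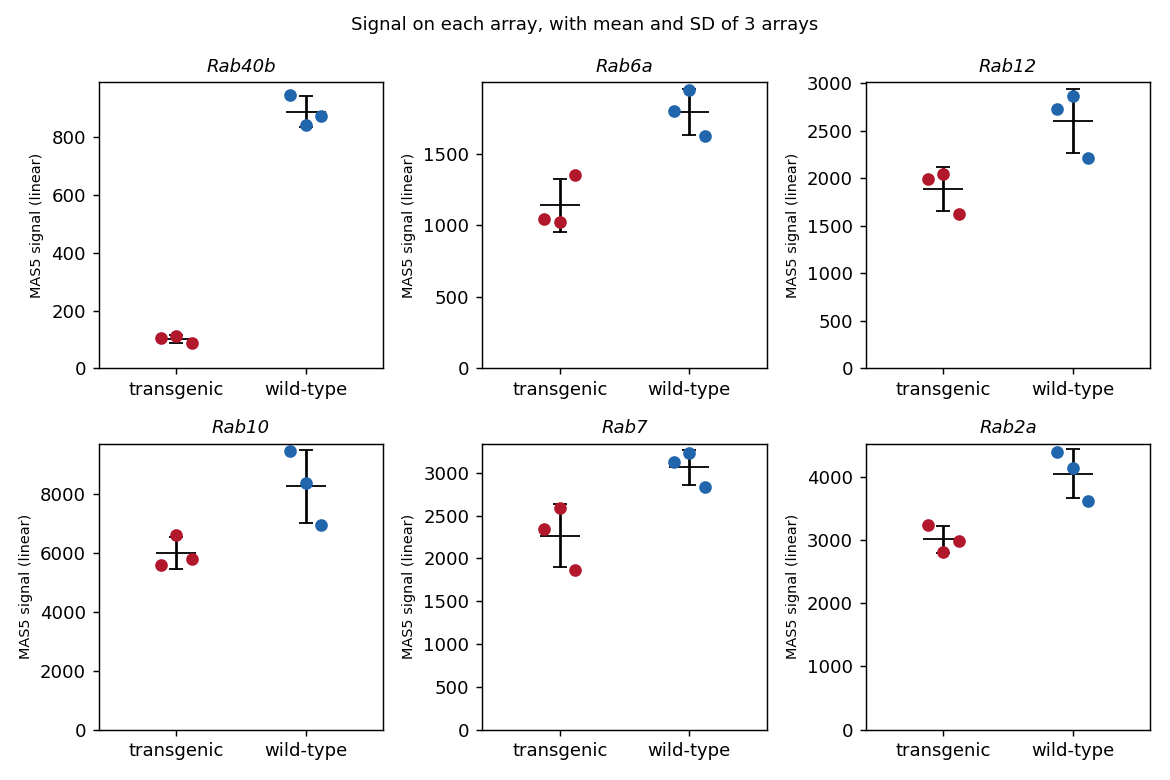
MAS5 signal, on a linear axis from 0, of the 6 Rab genes that fell, at each gene's brightest probe set. Points are single arrays, 3 transgenic (left) and 3 wild-type (right), with the mean and SD as bars. The genotypes do not overlap in any panel, and the gap is widest for Rab40b, at 101.3 ± 12.6 in transgenic and 888.0 ± 53.9 in wild-type muscle.

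Across the family, 10 Rab genes had all transgenic signals below all wild-type signals and 6 had them all above. Among all genes tested these shares were 14.7% and 18.6%. Of the 10, 4 did not pass: Rab4b, Rab5a, Rab13 and Rab27b. The 6 that lay above were Rab1b, Rab3a, Rab6b, Rab11b, Rab29 and Rab44, and 0 of them passed (limma; 4 at an unadjusted p under 0.05, Rab44 among them). Rab44 reached the signal cutoff only through transgenic muscle, so its p is no support. Summed over the 46 brightest probe sets, Rab signal spanned 35682 to 38092 in transgenic and 40768 to 43983 in wild-type muscle. Without the genes that passed, the sum spanned 21982.5 to 22910.8 in transgenic and 21486.5 to 22656.8 in wild-type muscle, which overlapped. The genes left out were chosen for being lower on these same arrays. That choice favours overlap, which is therefore no support for an unchanged remainder.

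The falls other than that of Rab40b were at bright probe sets. Of the 12 Rab genes with a mean signal above 1000, 5 were lower and 0 higher, where 15.5% of all genes that bright were lower and 18% higher. This split was made after the values were seen. Of the 34 dimmer Rab genes, Rab40b fell. The standard error was 0.09 to 0.13 for the bright genes and 0.15 to 0.40 for the 20 with a mean signal under 200. Dim members could thus change by amounts that passed in bright ones without passing. Of the 40 genes that did not pass, 36 had a 95% interval within a 2-fold change of signal + 16 in either direction. The exceptions were Rab27a, Rab32, Rab34 and Rab44. At dim genes the same interval allows a larger change in the signal itself.

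**Figure D3:**
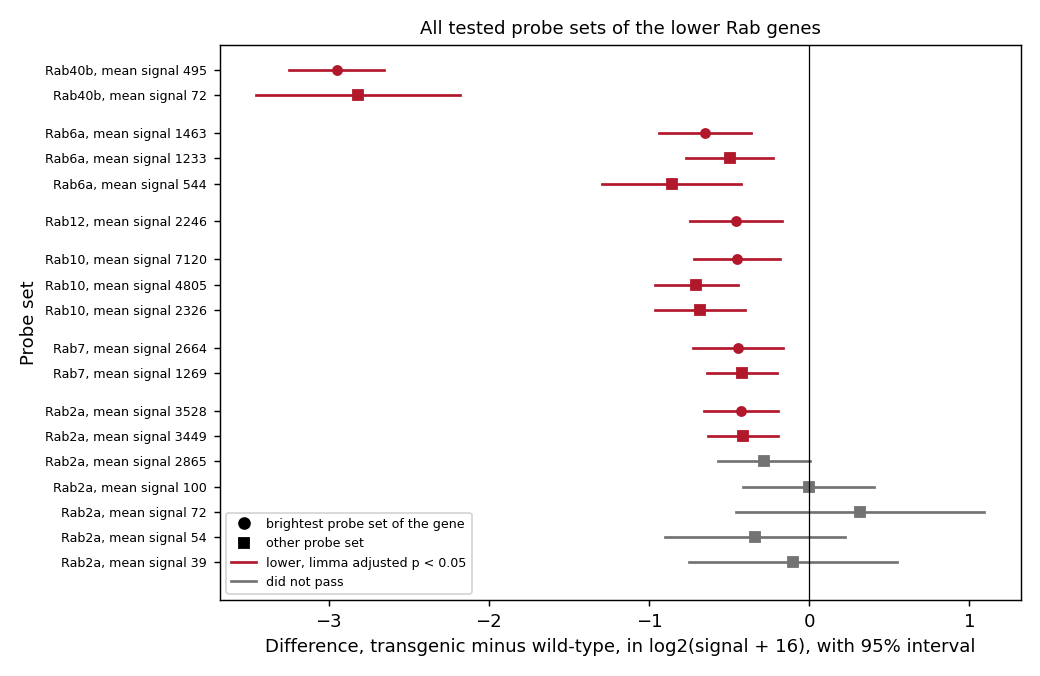
Difference between transgenic and wild-type muscle at all 18 member probe sets of the 6 Rab genes that fell, in log2(signal + 16) with 95% intervals. Labels give each probe set's mean signal over 6 arrays. The 13 red probe sets passed and lie below 0, and the 5 grey ones, which did not pass, all belong to Rab2a. The dimmer Rab40b probe set, among the red ones, reached the signal cutoff only through wild-type muscle.

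Of 31 Rab genes with several member probe sets, 19 had the same sign at all of them, and 0 had calls in both directions. The 18 probe sets of the 6 genes that fell gave 13 calls, all lower. Among the 13 is the dimmer Rab40b probe set, which reached the signal cutoff only through wild-type muscle. Rab40b and Rab6a had a call with any single array left out. The count of Rab genes that fell was 3 when transgenic 1 was left out, 4 for transgenic 2, 2 for transgenic 3, 2 for wild-type 1, 2 for wild-type 2 and 6 for wild-type 3. It was 2 with no cutoff on signal and 1, Rab40b, without the intensity trend in the variance model. Rab10 lost its call under 6 of the 18 alternatives, Rab2a under 7, Rab12 under 8 and Rab7 under 9, and none of these 4 changed direction under any of them.

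Genes that act on Rab proteins were counted from 5 lists, with 107 genes tested, of which 6 rose and 2 fell. That is 7.48% of them, against 13.4% of all genes, and 27.1% against 27.9% at an unadjusted p under 0.05. With all arrays brought to the same median signal, 1 rose and 12 fell, so that the balance of these lists depends on the scaling. Of 7 genes for prenylation, escort and GDP dissociation inhibitors, Rabggta rose, 0 fell and 6 did not pass. Rabggta is the α subunit of the transferase that attaches the lipid anchor, and it read 346.5, 342.3 and 275.0 in transgenic muscle, against 212.7, 218.4 and 231.2 in wild-type muscle. Its difference was 0.50 (SE 0.14, limma adjusted p = 0.0404), and it passed under 9 of the 18 alternatives. Its call was lost when transgenic 1, transgenic 2, wild-type 1 or wild-type 2 was left out. The median difference of this list was -0.05. At an unadjusted limma p under 0.05 there were 3 of the 7 genes, or 42.9%, against 27.9% of all genes. Besides Rabggta these were the escort protein genes Chm and Chml, which went the other way. Chm gave -0.45 (SE 0.17, limma adjusted p = 0.128) and Chml -0.59 (SE 0.24, limma adjusted p = 0.153). Both lay below wild-type on all transgenic arrays without passing.

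Of 31 exchange factors, 3 rose, 0 fell and 28 were not called, so that 9.68% were called. The median difference of the list was -0.02. Rab3ip, also known as Rabin8 and an activator of Rab8, read 373.4, 396.2 and 455.3 in transgenic muscle, against 300.0, 235.7 and 225.2 in wild-type muscle. Rab3ip thus rose by 0.66 (SE 0.15, limma adjusted p = 0.0160), and its dimmer probe set rose by 0.86 (SE 0.14, limma adjusted p = 0.00329). It passed under 13 of the 18 alternatives. The 5 that lost its call were a common median signal, no intensity trend, and leaving out transgenic 3, wild-type 2, or transgenic 3 and wild-type 3 together. Dennd6a and Dennd6b, DENN-domain proteins of which the first acts on Rab14, rose by 0.64 (SE 0.18, limma adjusted p = 0.0498) and 0.47 (SE 0.11, limma adjusted p = 0.0226) at their brightest probe sets. Their dimmer probe sets had differences of -0.19 for Dennd6a and of -0.09 and -0.12 for Dennd6b, and did not pass. Dennd6a passed under 7 and Dennd6b under 11 of the 18 alternatives. Neither gene passed without transgenic 1, transgenic 2, wild-type 1 or wild-type 2, and Dennd6a did not pass without wild-type 3.

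Of 33 GTPase-activating proteins, 2 rose, 1 fell and 30 were not called, so that 9.09% were called. The median difference of the list was -0.01. Tbc1d1, which acts on Rab8a and Rab10 and holds back GLUT4 vesicles in muscle until it is phosphorylated, read 313.5, 371.3 and 392.5 in transgenic muscle, against 180.8, 195.6 and 155.4 in wild-type muscle. Tbc1d1 thus rose by 0.96 (SE 0.15, limma adjusted p = 0.00211). A further Tbc1d1 probe set rose by 1.39 (SE 0.29, limma adjusted p = 0.0119), and the other 2 had differences of 0.68 and 0.74 that did not pass (limma adjusted p = 0.0674 and 0.0959). Tbc1d1 passed under all 18 alternatives. Tbc1d24 rose by 0.69 (SE 0.17, limma adjusted p = 0.0253) at the brightest of its 3 probe sets and was not called at the dimmer ones. It passed under 11 of the 18 alternatives, and its call was lost without transgenic 1, transgenic 3, wild-type 1 or wild-type 2. Tbc1d10c, which also binds and inhibits calcineurin, read 114.6, 118.1 and 128.5 in transgenic muscle, against 205.3, 227.4 and 164.6 in wild-type muscle, and fell by 0.65 (SE 0.16, limma adjusted p = 0.0274). It passed under 11 of the 18 alternatives, and its call was lost without any 1 array other than wild-type 3.

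Of 32 effectors, 0 passed (limma), where 13.4% of all genes did. At an unadjusted p under 0.05 there were 10, or 31.2%, against 27.9% of all genes, and the median difference was -0.10. The smallest p was that of Rilpl1, which binds phosphorylated Rab8 and Rab10. Its brightest probe set read 2045, 2050 and 2365 in transgenic muscle, against 3302, 3862 and 2395 in wild-type muscle, a difference of -0.54 (SE 0.16, limma adjusted p = 0.0514). A second bright probe set read 1397, 1541 and 1639 in transgenic muscle, against 2789, 3051 and 2539 in wild-type muscle, and fell by 0.86 (SE 0.11, limma adjusted p = 0.000703). The motor Myo5c gave 0.57 (SE 0.17, limma adjusted p = 0.0586).

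The partners that Rab40 proteins need to form a ligase were measured as a list of 4. Elob, elongin B, fell and the other 3 were not called. The median difference of the list was -0.14. Elob read 2437, 2120 and 2251 in transgenic muscle, against 3373, 3590 and 3432 in wild-type muscle, a difference of -0.61 (SE 0.09, limma adjusted p = 0.00232). Its other probe set fell by 0.49 (SE 0.12, limma adjusted p = 0.0226), and the gene passed under all 18 alternatives. Cul5, the cullin scaffold, read 971.7, 974.0 and 917.5 in transgenic muscle, against 1251, 1212 and 1089 in wild-type muscle, which did not overlap, and gave -0.30 (SE 0.10, limma adjusted p = 0.0872). Rnf7, the RING subunit, and Eloc, elongin C, gave 0.12 (SE 0.10) and 0.03 (SE 0.09).

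**Figure D4:**
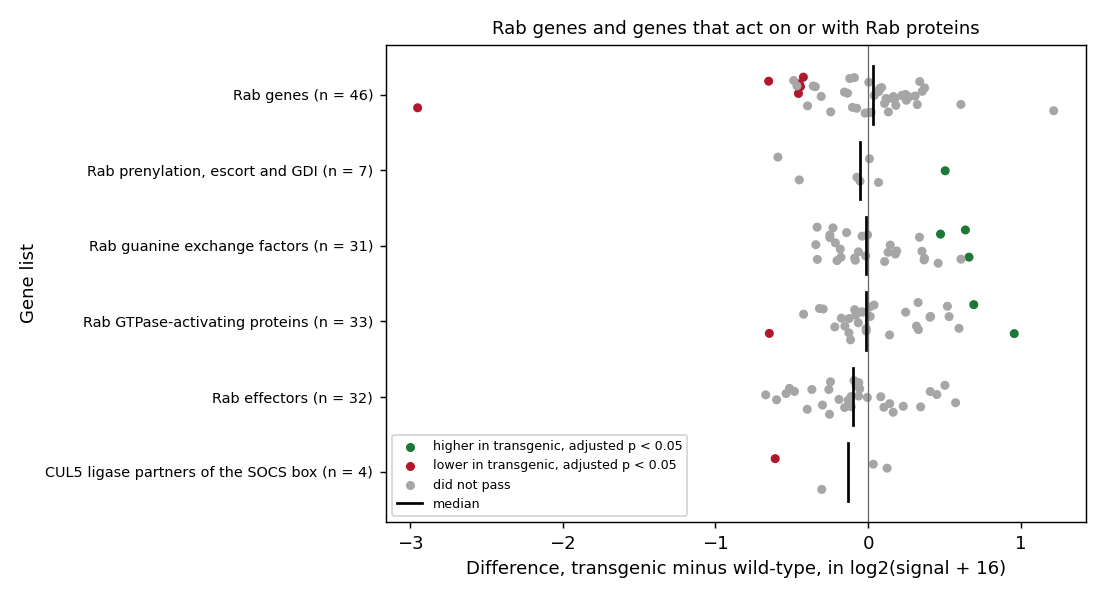
Differences in log2(signal + 16), transgenic minus wild-type, for the 46 Rab genes and the 5 lists of genes that act on or with Rab proteins. Each point is 1 gene at its brightest probe set, green and red mark those that passed, and the black line is the list's median. The Rab family has red points and no green one, while exchange factors and GTPase-activating proteins hold 5 of the 6 green points.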

How the data were processed

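Total quadriceps RNA was hybridised as biotinylated cRNA, per the labels' protocols. The authors deposited signal intensity on a linear scale, made with MAS5 per the submitters' processing notes. The MAS5 version is not given in the sources used here. Each array's mean without its highest and lowest 2% of probe sets is 200.0, and no other normalization was applied. Detection calls were not used here.

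Of 45101 probe sets, 64 controls were left out. In the platform annotation 34945 probe sets name 1 gene, 932 several and 9160 none, and 34741 of the first matched the GRCm38.p6 gene table by Entrez identifier. No probe set with several names includes a Rab gene. The test was limma 3.58.1 under R 4.3.3 (lmFit, then eBayes with an intensity trend, two-sided, Benjamini-Hochberg over 26995 probe sets), which was tested on simulated data. A gene is represented by its brightest tested probe set. Members that passed are given array by array; among the rest, the 2 with the largest difference in each compartment are named, with others chosen after their values were seen. For each pathway list the genes named are those that passed, or the 2 of smallest p, and Cul5, Rnf7 and Eloc complete a list of 4. Chm and Chml are named for their unadjusted p. The members and lists were chosen with earlier results of these data known. Alternatives changed the constant added before log2, the signal cutoff, how arrays were scaled or weighted, the variance model, the use of a replicate block, the probe set standing for a gene, or which arrays entered. Titles call the animals biological replicates. The labels do not say whether replicate numbers pair animals, and the main fit does not pair them. Figures were drawn with matplotlib 3.10.9.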

Additional observations from a re-analysis of the deposited data

How the results depend on the processing

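Rab40b passed under all 18 alternatives, with differences of -3.13 to -2.53, and Rab6a under 17, with an adjusted p of 0.0615 without the intensity trend. Rab10 passed under 12, Rab2a under 11, Rab12 under 10 and Rab7 under 9, and none of the 6 changed sign. Without the intensity trend, 1 Rab gene and 3 Rab probe sets were lower, and among genes of the pathway lists 1 was higher and 1 lower. With no cutoff on signal 2 Rab genes and 1 pathway gene were lower. With all arrays brought to the same median signal the Rab median was -0.12, with 1 pathway gene higher and 12 lower. With array weights 1 Rab gene and 1 Rab probe set, both Rab11b, were higher, and 5 pathway genes were lower. Averaging a gene's probe sets gave 6 pathway genes lower. Without wild-type 3 and transgenic 3 together the Rab median was 0.074 and 5 pathway genes were lower. With 1 array left out, 2 to 6 Rab genes and 5 to 13 Rab probe sets were lower. In these fits 0 Rab genes and 0 to 1 Rab probe sets were higher. The higher one, without transgenic 2, was a dim Rab6b probe set. It reached the signal cutoff only through transgenic muscle, so its call is no support. The Rab median ran from -0.021 (without wild-type 2) to 0.078 (without wild-type 3). Of the pathway genes, 2 to 6 were higher and 1 to 6 lower. The causes were not tested. Same-numbered animals did not deviate together (correlations of 0.07, -0.08 and -0.02), and the fit with the replicate number as a block gave 6 Rab genes lower and 0 higher, 13 Rab probe sets lower and 0 higher, a Rab median of 0.029, and 6 pathway genes higher and 3 lower; among the higher ones Rabggta was lost and Als2cl gained. Dim probe sets near the added 16 units, such as the dimmer one of Rab40b, give no dependable fold.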
